A study of Mus musculus with 1152 samples.

Results

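The Foxp2-Apoe-Bmp4 cells were 150 of the lymphatic endothelial cells (LECs) sorted from the plexus of lymphatics in the nasopharynx (NPLP) of aged mice, a share of 22.9% of all cells in the deposited table (95% interval, 19.7 to 26.3). They were chosen on measured values. Each gene was converted to a z score over all cells, the z scores of the genes of each of 6 classes were averaged, and a cell joined the class with its highest average. For this class the genes were Foxp2, Bgn, Apoe, Bmp4 and Comp. Levels of these 5 genes are therefore a description of the choice. The other classes, named in the same way from their own genes, held 21.2% (Ptx3+ capillary), 17.8% (Ptx3- capillary), 17.4% (Ptn), 11.1% (upstream valve, 73 cells) and 9.60% (downstream valve, 63 cells).

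The cells came from mice labelled C57BL/6 (C57BL/6J in the study's methods) and aged, which in the methods means over a year old. Their nasopharyngeal mucosa was pooled before dissociation, and the methods name both sexes. Cells positive for the endothelial surface protein CD31 and for podoplanin were sorted into 96-well plates and sequenced by Smart-seq3, which reads along the whole transcript. No label names an animal and the mice had no other treatment in the labels, so the 150 cells are parts of 1 pooled sample, no comparison has a replicate and no p-value is given. SDs and intervals below cover the spread between cells or counting error only, and reads were not collapsed to molecules.

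Precollecting lymphatics join the blind-ended lymphatic capillaries, which take up fluid, to the contractile collecting vessels. They carry valves, as collectors do, but lack a smooth muscle coat, and the hyaluronan receptor LYVE1 is typically strong in capillaries and weak in collectors. Foxp2 is a forkhead transcription factor, Bgn (biglycan) a small leucine-rich proteoglycan, Apoe a lipid-carrying apolipoprotein, Bmp4 a secreted ligand of the bone morphogenetic protein (BMP) family and Comp a pentameric thrombospondin of the extracellular matrix. The study named precollecting LECs by Foxp2 together with Lyve1.

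Depth differed between cells far more than between classes. Members held 7046 to 8620173 reads (median 184208) and the other cells 7108 to 10727631 (median 128948). Median detected genes were 4036 and 3920, and median mitochondrial shares 1.44% and 1.44%. Because a read is found more easily in a deep cell, detection is given below at 20000 reads per cell unless full depth is named, a depth that 88 cells did not reach and for which they were left out. At full depth Xist, which is expressed from the inactive X chromosome of females, was read in 92.7% of members and 92.9% of other cells, and a Y-linked gene in 1 and 3 cells, all of them with Xist. These counts go against a pool with an even share of both sexes.

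The 5 scoring genes were each higher in members than in the other cells in all 12 blocks of 96 consecutive cell numbers, as the choice of cells favours. Apoe (chr7:19696109-19699188 in GRCm38, minus strand) ran from 0 through a median of 2.72 to 5.22 in members on the natural log scale of 1 plus reads per 10000, and from 0 through 0.24 to 4.28 in other cells. Its mean reads per 10000 were 7.06-fold higher, the widest gap of the 5. Bmp4 (chr14:46383520-46390669, minus strand) had a median of 0.75 and a highest value of 3.29 in members, against 0 and 3.04, a 4.71-fold difference in mean reads. Both genes overlapped widely between members and other cells.

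Comp (chr8:70373558-70382066, plus strand) had a natural log median of 1.20 in members and 0 in other cells, and a 3.35-fold difference in mean reads. Foxp2 (chr6:14901349-15441977, plus strand) had medians of 0.81 and 0.06 and a 2.7-fold difference. Bgn (chrX:73483602-73495933, plus strand) was found in most cells of either kind, with medians of 2.50 and 1.39 and a 2.46-fold difference. At 20000 reads per cell Bgn was detected in 94.8% of members and 73.3% of other cells, Apoe in 85.1% and 46.8%, Foxp2 in 73.9% and 38.2%, Comp in 66.4% and 30.9%, and Bmp4 in 55.2% and 16.8%. None of the 5 genes was thus private to the members.

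**Figure D1:**
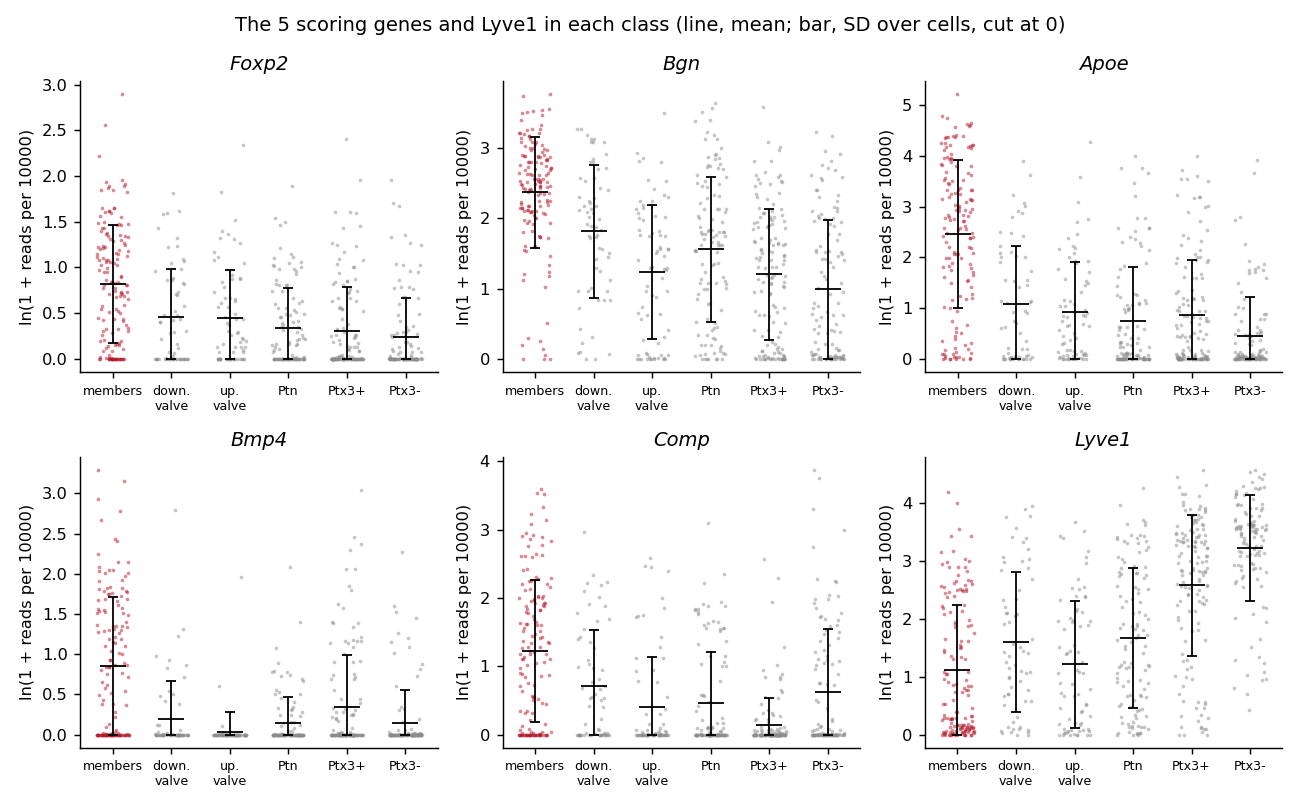
Natural log of 1 plus reads per 10000 (vertical axis) of the 5 scoring genes and of Lyve1 in each cell (point) by class, with the class mean (line) and the SD over cells (bar, cut at 0). Members are in red, and for Lyve1, which was not scored, their mean of 1.11 lies below the 2.58 of Ptx3+ and the 3.22 of Ptx3- capillary cells.

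The members were not a uniform set. At full depth all 5 scoring genes were detected in 69 members, 4 in 51, 3 in 27, 2 in 2 and 1 in 1, while 49 of the other cells also held all 5. Bmp4 gave the highest z score in 45 members, Apoe in 37, Foxp2 in 27, Comp in 27 and Bgn in 14. Within the members the 10 pairwise Spearman correlations of these genes ran from -0.17 to 0.13 (median 0.05, 150 cells of 1 pool), against 0.13 to 0.28 (median 0.19) over all cells. Both sets of values share the differences in depth between cells, and the first set is bounded by the choice of members. When Foxp2 was taken out of the score 130 of the 150 cells stayed in the class. Between 85.3% (without Apoe) and 89.3% (without Comp) stayed when one of the other scoring genes was left out.

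The class score reached from -0.21 to 2.26 in members (median 0.71) and from -0.87 to 1.42 in other cells (median -0.28). It is a range and not a separate group. Of the 150 members, 49 (32.7%) led their next class by less than 0.25, and 48 other cells fell short of the class by less than 0.25. Just inside the border the member with the smallest lead scored 0.09 for the class and 0.08 for upstream valve. Just outside it the nearest cell scored 0.56 for the class and 0.57 for Ptn. The next class was downstream valve in 49 members, upstream valve in 37, Ptx3- capillary in 24, Ptn in 24 and Ptx3+ capillary in 16.

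**Figure D2:**
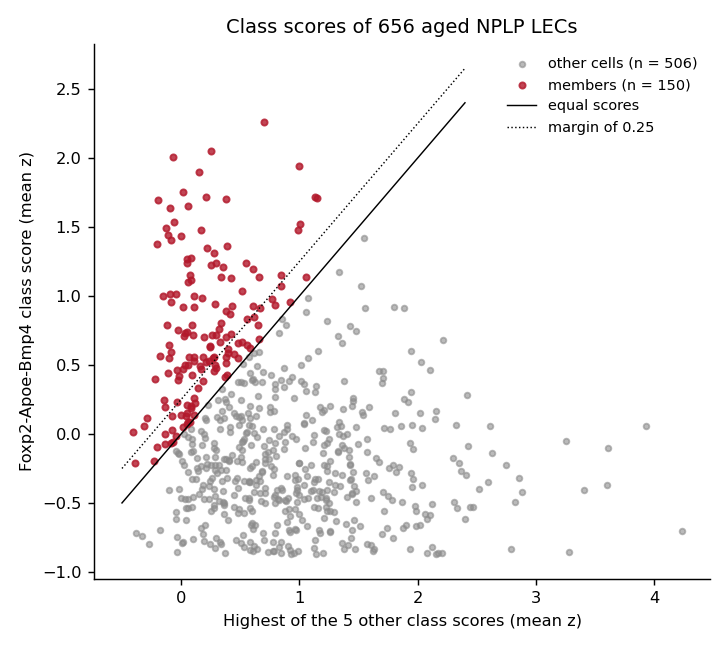
Foxp2-Apoe-Bmp4 score of each cell (vertical axis, mean z) against the highest of its 5 other class scores (horizontal axis, mean z), with the line of equal scores (solid) and the margin of 0.25 above it (dotted). The 150 members (red) form 1 continuous cloud with the other cells (grey), and 49 of them lie between the lines.

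Genes that score the other classes were used by the rule to keep cells out, so their levels in members are likewise a description. Of these 26 genes, 17 had a median of 0 in members and 24 had a lower median there than in their own class. Stab1, a scavenger receptor of lymphatic capillaries, and Reln, a secreted glycoprotein, kept high natural log medians of 3.17 and 2.25 in members against 3.72 and 3.10 in their own classes. Gja4, the gap junction protein connexin 37 of valves, had a median of 0.34 in members and 1.46 in downstream valve cells. Clu, the secreted chaperone clusterin, had medians of 0.18 and 1.53. Against all other cells Clu was 1.52-fold higher in members, with detection of 47% and 32.5%. Gja4 was detected in 54.5% and 39.4%, but its mean reads were only 1.04-fold higher and 7 of 12 blocks were higher. The remaining genes of the downstream valve class were lower in members: Angpt2 by 2.61-fold, Itga9 by 2.05-fold and Foxc2 by 1.23-fold. Cldn11, a claudin used to mark valves, had a median of 0.27 in members and 1.55 in upstream valve cells.

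The identity of the members as LECs was checked on 12 genes that the rule did not use. Their median detection was 94.4% of members and 94% of other cells, and Lyve1 alone among them differed by 1.5 times or more. Prox1, the transcription factor that specifies lymphatic endothelium, averaged 1.41 ± 0.63 in members and 1.51 ± 0.71 in other cells on the natural log scale (SD over cells). Pdpn, which encodes podoplanin, averaged 1.19 ± 0.73 and 1.36 ± 0.70. All cells were sorted for podoplanin and for CD31, which Pecam1 of the 12 genes encodes, so these genes are no independent check of identity. Flt4, the receptor for VEGF-C also called VEGFR3, ran from 0.30 through 2.27 to 3.48 in members and from 0.19 through 2.63 to 3.95 in other cells. Its mean reads were 1.38-fold lower in members, and its mean log value was lower in members in 12 of 12 blocks. The log2 fold of Flt4 was -0.76 against Ptx3+ capillary, -0.56 against Ptx3- capillary and -0.40 against Ptn cells. Against downstream valve cells it was -0.14 and against upstream valve cells 0.10.

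Lyve1 was lower in the members than in the rest of the plexus. On the natural log scale Lyve1 (chr7:110850607-110863239, minus strand) ran from 0 through a median of 0.71 to 4.19 in members and from 0 through 2.50 to 4.58 in other cells. The means were 1.11 ± 1.14 and 2.21 ± 1.35 (SD over cells), a difference of -1.10, and mean reads per 10000 were 3.30-fold lower in members. At 20000 reads Lyve1 was detected in 59.7% of members (50.9 to 68.1) and 87.3% of other cells (83.8 to 90.3). The log2 fold was -2.62 against Ptx3- capillary, -2.0 against Ptx3+ capillary, -0.86 against Ptn, -0.80 against downstream valve and -0.03 against upstream valve cells. The gap was thus wide against both capillary classes and near 0 against upstream valve cells.

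Foxp2 and Lyve1, the pair by which the study named precollecting LECs, were detected together at full depth in 78% of members (70.5 to 84.3) and in 53.8% of other cells (49.3 to 58.2). At 20000 reads the shares were 41% (32.6 to 49.9) and 32.9% (28.5 to 37.6), with overlapping intervals. Members were enriched in Foxp2 by choice and low in Lyve1, so the pair separated them less than Foxp2 alone. The set is called here by its leading genes and not by a vessel type.

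The gap in Lyve1 followed the distance from the border. Lyve1 averaged 0.95 ± 1.09 in the 67.3% of members that led their next class by 0.25 or more, 1.44 ± 1.19 in the 49 nearer members and 1.90 ± 1.26 in the 48 other cells just short of the class. By next class Lyve1 averaged 0.66 ± 0.92 in members nearest to downstream valve cells, 1.09 ± 1.11 in those nearest to upstream valve cells and 1.84 ± 1.15 in those nearest to Ptx3+ capillary cells. Members nearest to downstream valve cells also had Gja4 at 1.23 ± 0.94 and Clu at 1.52 ± 1.37, against 0.73 ± 0.83 and 0.90 ± 1.13 over all members. Members nearest to upstream valve cells had Cldn11 at 1.30 ± 0.80 against 0.70 ± 0.79. The next class of a cell is itself read from Gja4, Clu and Cldn11, so these values describe the split, whereas Lyve1 had no part in it.

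**Figure D3:**
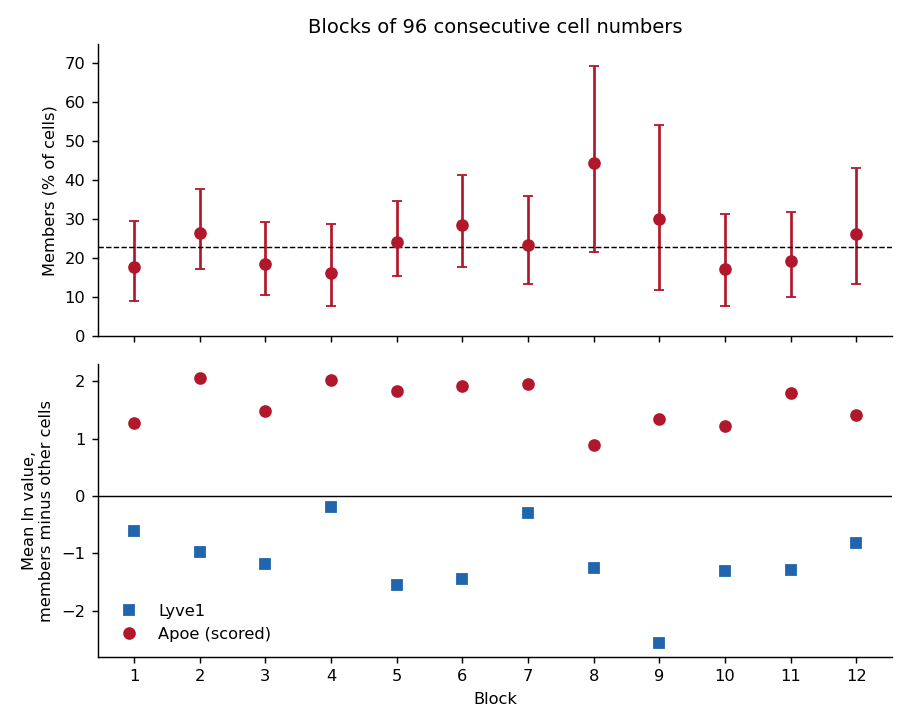
Share of cells in the class with its exact 95% interval (top, percent of the cells of each block, dashed line at the 22.9% of all cells) and the difference of mean natural log values, members minus other cells, for Lyve1 and the scored gene Apoe (bottom) in 12 blocks of 96 consecutive cell numbers. Lyve1 lies below 0 in 12 of 12 blocks, from -2.57 to -0.20.

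The blocks follow the numbers in the cell titles, and no label says that a block was a plate. The share of Foxp2-Apoe-Bmp4 cells ran from 16.4% to 44.4% over the 12 blocks (median 23.7%), with 6 to 21 members in each. The highest share was 8 of 18 cells, in a block whose cells had a median of 2450280 reads, and its interval reached down to 21.5%. Lyve1 was lower in members in every block, by a median of -1.22. Apoe was higher in members in every block, by 0.89 to 2.07.

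Aqp1, the water channel aquaporin 1, had the lowest log2 fold among all 10062 genes tested, where a gene was tested if at least 10% of members or of other cells had a read. Natural log values ran from 0 through a median of 0.35 to 4.97 in members and from 0 through 2.94 to 5.52 in other cells. Mean reads per 10000 were 4.84-fold lower in members, a log2 fold of -2.27 with 0.1 added to both means, and the mean log value was lower in 12 of 12 blocks. Detection at 20000 reads was 53.7% and 80.4%. The log2 fold was -1.45 against downstream valve and -0.56 against upstream valve cells.

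Over the 10062 genes the median log2 fold, members over other cells, was -0.09. By a difference of at least 1.5 times, 2.78% of them were higher in members and 6.96% lower, the background for every count below. Of 6 capillary genes outside the rule 1 was higher and 3 were lower. The lower ones were Lyve1, Ackr2, a scavenging receptor for inflammatory chemokines (log2 fold -1.40, lower in 12 of 12 blocks), and Nrp2, a co-receptor for VEGF-C (-0.61). Against upstream valve cells Ackr2 was at -0.17 and Nrp2 at 0.30, and against downstream valve cells they were at -0.73 and -0.39. The higher one was Ackr4, a scavenging receptor for CCL19 and CCL21, at 1.45, with detection at 20000 reads of 14.2% of members and 4.15% of other cells. Against Ptn cells, 12.4% of which had Ackr4 at that depth, its log2 fold was 0.07. Il7, a cytokine made by LECs, was at 0.32.

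Of 20 tested genes of valves and collecting vessels outside the rule, 1 was higher and 2 were lower, with a median log2 fold of -0.03. Efnb2, the ephrin B2 ligand needed for valve formation, was the higher one. Its natural log values had a median of 0.72 in members and 0.11 in other cells, with detection at 20000 reads of 73.9% (65.6 to 81.1) and 43.1% (38.4 to 47.9) and a log2 fold of 0.66. Against downstream valve cells the log2 fold of Efnb2 was -0.13. Cav1, which encodes caveolin 1, was at 0.39 and Klf2, a transcription factor induced by flow, at 0.33. Lama5, a laminin chain, was among the lower ones at -1.27, and at -3.00 against upstream valve cells.

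Where matrix genes beside Bgn and Comp differed by 1.5 times, they were lower in members. Of 23 tested genes of basement membrane and elastic matrix 0 were higher and 7 were lower by 1.5 times, with a median log2 fold of -0.34, and Lamb1, a laminin chain, stood highest at 0.48. Lama5 was lowest at -1.27, followed by Mgp, an inhibitor of calcification, at -1.25. Among the others, named after their values were seen, Fbln2 (fibulin 2) was at -1.24, Col4a2 at -1.20 and Col4a1 at -1.17. Col4a1 and Col4a2 encode the chains of the common collagen IV network and were lower in members in 12 of 12 blocks. Col4a1 had a natural log median of 0.57 in members and 1.13 in other cells, and detection at 20000 reads of 55.2% and 74.7%.

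No tested relative of biglycan or COMP was higher by 1.5 times. Of 5 tested members of the small leucine-rich proteoglycans and thrombospondins 0 were higher and 3 were lower, with a median log2 fold of -0.60. Among the cells below the median immediate-early score, defined below, the list's median was -0.11, near the -0.10 of all genes tested. Dcn is also among the fibroblast markers read below. Dcn (decorin), the closest relative of Bgn in the list, was at -1.33, Thbs1 (thrombospondin 1) at -0.74 and Thbs3 at -0.60. Prelp was at -0.23 and Thbs2 at -0.19. Most of the list, 6 of 11 genes, did not reach the detection limit.

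Bmp4 was the sole BMP ligand with a higher level in members among those tested, and it was part of the rule. Bmp6 was at a log2 fold of -0.03, the stress-induced ligand Gdf15 at -0.40 and Bmp7 at -1.84. Bmp7 was lower in 12 of 12 blocks, with detection at 20000 reads of 5.22% of members (2.13 to 10.5) and 17.5% of other cells (14.1 to 21.4). Its log2 fold was -3.35 against Ptx3+ capillary, -0.61 against Ptx3- capillary and -0.15 against Ptn cells. Against upstream valve cells Bmp7 was at 0.27 and against downstream valve cells at 0.86. The low level was thus mainly a contrast with Ptx3+ capillary cells. The 5 tested receptors, such as Acvrl1 (ALK1) at 0.04, Eng (endoglin) at -0.09 and Bmpr2 at -0.23, held 0 genes past 1.5 times in either direction, with a median of -0.09. The 7 tested effectors and targets likewise held 0, with a median of -0.03. Of the inhibitor of differentiation genes, which BMP signalling induces, Id2 was at 0.41, Id1 at 0.35 and Id3 at 0.14, and detection of Id1 at 20000 reads was 29.1% and 30.4%. The direction was not stable, since among the cells below the median immediate-early score, defined below, Id2 was at -0.40 and Id1 at -0.83. Among 3 tested inhibitors the decoy receptor Bambi was at 0.75, Fstl1 at 0.24 and Twsg1 at -0.50.

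Other genes of lipid handling lay near the background. Of 18 tested genes 1 was higher and 1 lower, with a median log2 fold of -0.14. Scarb1, the receptor for high-density lipoprotein, was at 0.69 and higher in 8 of 12 blocks, but at 0.25 among cells below the median immediate-early score. Lpl (lipoprotein lipase) was at 0.45. Gpihbp1, which holds lipoprotein lipase on endothelium, was at -0.67 and Cd36, a fatty acid transporter, at -0.57. Forkhead factors beside Foxp2 held 0 of 10 genes past 1.5 times in either direction (median 0.01), with Foxo3 at 0.39 and Foxp4 at 0.24 (-0.32 and -0.08 among cells below the median immediate-early score), Foxp1, a relative of Foxp2, at -0.34 and Foxj2 at -0.39.

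**Figure D4:**
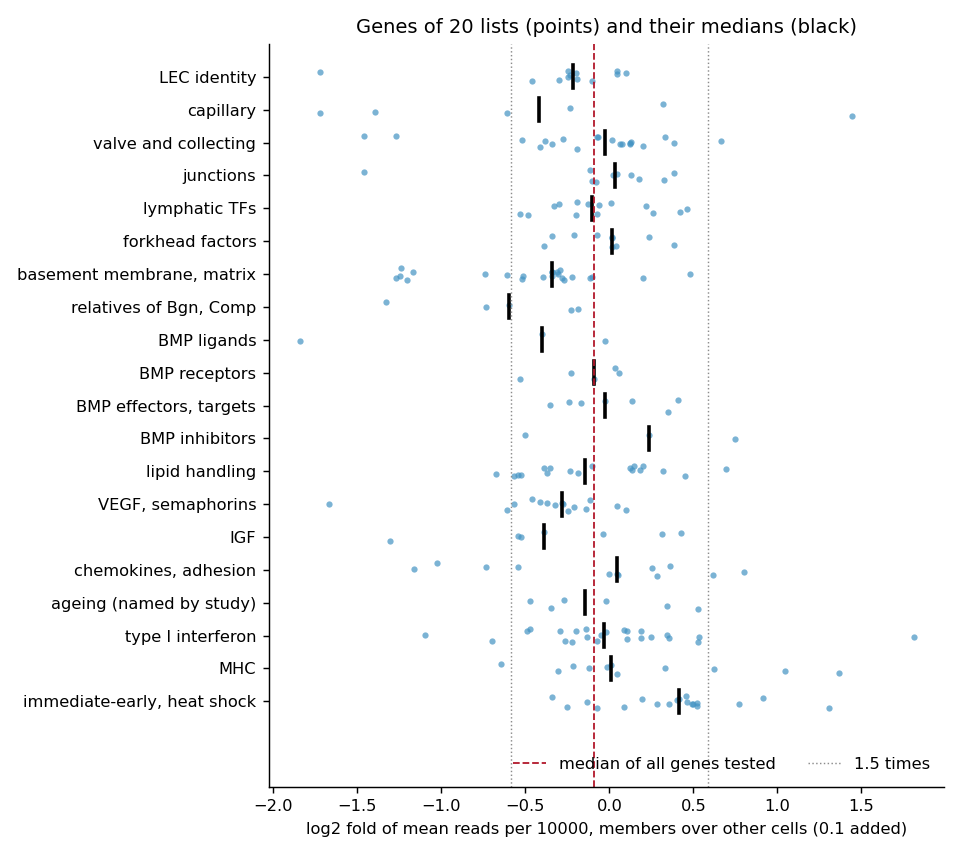
log2 fold of mean reads per 10000, members over other cells with 0.1 added (horizontal axis), for each tested gene (points) of 20 gene lists, with the list median (black), the median of all 10062 genes (dashed, -0.09) and 1.5 times in either direction (dotted). Matrix genes lie mostly left of the dashed line and immediate-early genes right of it, while BMP receptors and targets straddle it.

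Lymphatic transcription factors held 0 of 14 genes past 1.5 times, with a median log2 fold of -0.10. Fli1, an ETS factor of endothelium, was at 0.46 and higher in 12 of 12 blocks, Hhex at 0.42, Maf at -0.48 and Tbx1 at -0.53. Of 10 junction genes 0 were higher and 1 was lower, with Jam3 at 0.39 and Esam at 0.17. Of 15 genes of VEGF, semaphorin and angiopoietin signalling 0 were higher and 2 were lower, with a median of -0.28. These were Nrp2 and Pgf, the placental growth factor, which was at -1.67 with detection at 20000 reads of 30.6% and 57.4%. Of 7 genes of insulin-like growth factor signalling 0 were higher and 1 was lower, Igfbp3, a binding protein, at -1.31, while Igf1 was at 0.42 and Igf1r at 0.32.

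The study named 6 single genes and the MHC genes for ageing, and the 6 single genes held 0 past 1.5 times, with a median log2 fold of -0.14. In aged mice the study found Mcl1 lower and the other single genes higher, so this median mixes opposite directions. The study chose these genes on these cells, so they are no independent measure. Ifitm2, an interferon-induced membrane protein, was at 0.53 and higher in 12 of 12 blocks, with natural log medians of 1.91 in members and 1.64 in other cells. Ifitm3 was at 0.34, Zbp1 at -0.02, the anti-apoptotic Mcl1 at -0.27, the alarmin Il33 at -0.35 and Irf7 at -0.47. The Ifitm genes are close copies, so reads can be split between them. Of 24 type I interferon genes 1 was higher, Ifitm1 at 1.81, and 2 were lower, Rsad2 at -0.70 and Oas1a at -1.10, with a median of -0.03. Ifitm1 was detected at 20000 reads in 11.2% of members and 4.38% of other cells and was higher in 7 of 12 blocks.

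Of 11 MHC genes 3 were higher and 1 was lower, with a median of 0.01. The higher ones were the class II genes Cd74 at 1.37, H2-Eb1 at 1.04 and H2-Aa at 0.62, while Nlrc5, which drives class I genes, was at -0.65. The class II values came from few cells: Cd74 was detected at 20000 reads in 18.7% of members and 16.6% of other cells, and its highest natural log values were 4.96 and 4.12. Of 12 chemokine and adhesion genes 2 were higher and 3 were lower. Icam1, a leukocyte adhesion molecule, was at 0.80 with detection of 74.6% and 59%, Cxcl1 at 0.61, Ackr3 at -1.03 and Selp at -1.16, and the remaining lower gene, named after its value was seen, was Cxcl12 at -0.73.

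Immediate-early and heat shock genes were the list with the highest median among those of more than 10 tested genes, at 0.41 over 19 genes, of which 3 were higher and 0 lower. Ier3 was at 1.31 and higher in 12 of 12 blocks, Socs3, a feedback inhibitor of cytokine signalling, at 0.91 and Nr4a1 at 0.77, the last at -0.30 among the cells of low score described next. Natural log values of Socs3 had a median of 3.12 in members and 2.01 in other cells. These genes are induced during tissue dissociation as well as in tissue, and their part in the other differences was not tested. Among the cells below the median of the mean z score over this list the class held 17.1% of cells, the list's median log2 fold was 0.03, and Lyve1 differed by -0.99. The cut was made on this same list, so the 0.03, like the -0.30 of Nr4a1, describes the choice of cells.

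Outside the lists, 15 genes were taken by the largest fold above other cells. Clca3a1, a regulator of chloride conductance known from lymphatic endothelium, was the most widely detected of them. Its natural log values had a median of 2.64 in members and 1.53 in other cells, with means of 2.52 ± 0.82 and 1.42 ± 1.02. At 20000 reads it was detected in 95.5% (90.5 to 98.3) and 75.8% (71.5 to 79.8), and its mean log value was higher in members in 12 of 12 blocks. Its log2 fold of 1.37 was 0.68 against downstream valve and 2.60 against Ptx3+ capillary cells. Reads of Clca3a1 can be shared with its near copy Clca3a2.

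Procr, the endothelial protein C receptor, had a natural log median of 1.01 in members and 0.04 in other cells. Its log2 fold was 1.31, with detection at 20000 reads of 71.6% (63.2 to 79.1) and 42.9% (38.1 to 47.7). Parm1, a mucin-like membrane protein, had medians of 0.54 and 0, a log2 fold of 1.41 and detection of 58.2% and 21.9%. The gap of Parm1 was widest against Ptx3+ capillary (3.60) and Ptx3- capillary cells (3.27). It was 0.82 against downstream valve, 0.61 against Ptn and 0.37 against upstream valve cells, 50.8% of which had Parm1. Tspan7, a tetraspanin, had medians of 0.95 and 0, a log2 fold of 1.34 and detection of 63.4% and 32.3%. Tspan7 was at 3.30 against Ptx3+ capillary, 1.65 against Ptx3- capillary, 1.54 against upstream valve, 1.08 against downstream valve and 0.29 against Ptn cells, so its gap was narrowest to the last.

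Fmo2, a flavin-containing monooxygenase, had the highest log2 fold against downstream valve cells, 1.97, among genes outside the lists that met the detection limits, and stood at 1.58 against all other cells. It was detected at 20000 reads in 47% of members (38.3 to 55.8), 15.1% of downstream valve cells and 23% of all other cells, and was higher in 12 of 12 blocks. Bmx, a tyrosine kinase of the Tec family found in endothelium, was at 1.46 with detection of 37.3% and 18%. Epha4, a receptor for ephrins, was at 1.40 with detection of 20.1% (13.7 to 27.9) and 2.30% (1.11 to 4.20). Both Bmx and Epha4 were higher in 12 of 12 blocks.

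Adamts1, a secreted protease that cuts versican, was at a log2 fold of 1.41, and at 0.68 among cells below the median immediate-early score. March3 (a ubiquitin ligase) was at 1.24 and at 0.66 in those cells, whereas Parm1 was at 1.20, Procr at 1.32 and Clca3a1 at 1.54 there. Klrb1f, a lectin-like receptor best known from natural killer cells, was at 1.66 with detection of 35.8% and 18.7%, and was higher in 9 of 12 blocks. It was detected in 44.1% of upstream valve and 35.8% of downstream valve cells, against which its log2 folds were 0.70 and 0.98. Detection was 9.84% in Ptx3+ capillary, 8.74% in Ptx3- capillary and 15.5% in Ptn cells. Gadd45g, a growth arrest and stress gene, was at 1.22 against all other cells but -0.25 against downstream valve cells. The uncharacterised gene 1200007C13Rik was at 1.21.

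Genes best known as products of liver stood first by fold, but from a minority of the cells. Kng2, a kininogen, was at a log2 fold of 2.31 and Ahsg, the plasma protein fetuin-A, at 2.24. At 20000 reads Kng2 was detected in 20.1% of members (13.7 to 27.9) and 3.92% of other cells (2.30 to 6.2), and Ahsg in 17.2% (11.2 to 24.6) and 4.38% (2.66 to 6.75). The median natural log value of both was 0 in members and other cells alike, and the highest member values were 3.01 and 3.69. Each was higher in members in 10 of 12 blocks. Itih2, a heavy chain that binds hyaluronan, was at 1.20 with detection of 34.3% and 10.8%. The difference was smaller or reversed in its relatives: Itih3 was at 0.20, was detected in 14.9% of members and 19.4% of other cells and was higher in 5 of 12 blocks, and Itih4 was at a log2 fold of -0.11.

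Kng2 and Ahsg lie on chromosome 16 with 86404 bases between them, and they were read in overlapping sets of cells. At 20000 reads, 11 of the 27 members with Kng2 (40.7%, 22.4 to 61.2) also had Ahsg, against 11.2% of the members without Kng2 (5.93 to 18.8). Among other cells Ahsg was found in 5 of the 17 with Kng2 (29.4%, 10.3 to 56) and 3.36% of those without (1.85 to 5.57). At full depth Hrg, a further plasma protein gene between them, was read in 4 members and 4 other cells, and Apoa1, an abundant liver transcript, in 0 members and 0 other cells. Kng2 averaged 0.33 ± 0.66 in members at or past the margin of 0.25, 0.09 ± 0.38 in members within it and 0.01 ± 0.08 in other cells just short of the class. Against downstream valve cells Kng2 was at 0.92 and Ahsg at 0.30, and Ahsg was detected at 20000 reads in 18.9% of those cells.

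**Figure D5:**
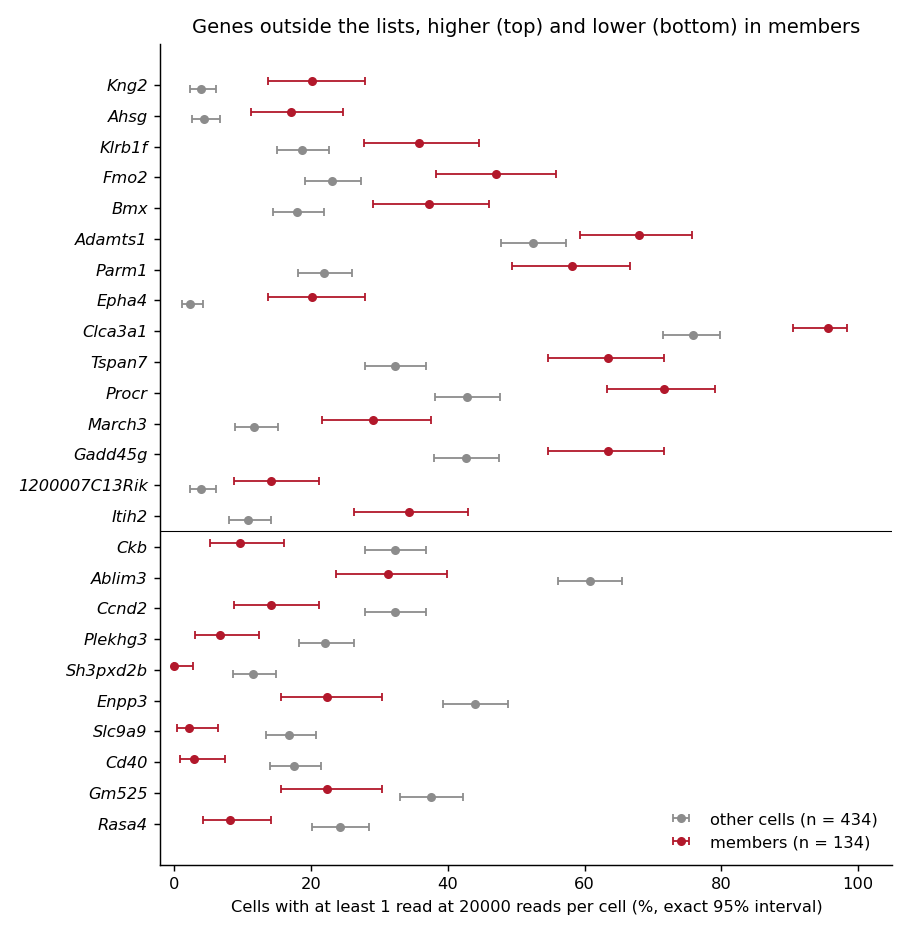
Share of cells with at least 1 read at 20000 reads per cell (horizontal axis, percent, with exact 95% intervals) for the 15 genes outside the lists with the highest fold (above the line) and the 10 with the lowest (below), in members (red) and other cells (grey). The genes were picked for these differences, and Kng2, Ahsg and Epha4 were found in a minority of members whereas Clca3a1 was found in 95.5%.

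The 10 genes outside the lists with the lowest folds were picked among genes detected in fewer members than other cells, by at least 10 percentage points at 20000 reads. Their lower detection is therefore a description of the choice. Rasa4, a Ras GTPase-activating protein, was at a log2 fold of -2.06, with detection of 8.21% and 24.2%. Cd40, a receptor of the TNF receptor family, was at -1.91 with detection of 2.99% (0.82 to 7.47) and 17.5% (14.1 to 21.4), and lay between -2.19 and -1.71 against each of the 5 other classes. Slc9a9, an endosomal sodium-proton exchanger, was at -1.81 with detection of 2.24% and 16.8% and was lower in 12 of 12 blocks. Ccnd2, which encodes cyclin D2, was at -1.50 with detection of 14.2% and 32.3%, lower in 12 of 12 blocks and between -1.78 and -1.33 against each class.

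Gm525 was at -1.92 against all other cells, yet at -3.48 against Ptx3+ capillary cells and 0.76 against upstream valve cells. Ablim3, which binds actin, was at -1.38 against all other cells and at -0.29 against downstream and -0.15 against upstream valve cells. Enpp3, an ectonucleotidase, was at -1.70 with its lowest value, -2.57, against Ptx3- capillary cells. Sh3pxd2b, a podosome adaptor, was at -1.66, Plekhg3 at -1.61 and Ckb, the brain creatine kinase, at -1.37. Apart from Gm525, each of these 10 genes was lower in members against each of the 5 other classes.

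Against single classes a few further genes led. Fam180a was at a log2 fold of 1.63, Klhl36 at 1.60 and Zkscan1 at 1.59 against downstream valve cells. Snai1, a transcription factor of mesenchymal transition, was at 2.60 against upstream valve cells, with detection at 20000 reads of 30.6% of members and 5.08% of those cells. Against Ptn cells Apod, a lipid-binding apolipoprotein, was at 2.76 and Pdgfb, a growth factor that recruits mural cells, at 2.01 with detection of 20.9% and 2.06%.

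The members were also neighbours in genes that the rule did not use. With the 31 scoring genes left out, the 15 nearest cells of a member, in 15 principal components of the 2000 most variable genes, were members in a median of 66.7% (quartiles 33.3 to 80), while members were 22.9% of all cells and a median of 6.67% of the neighbours of other cells. The median was 66.7% for members at or past the margin and 40% for those within it. Such grouping was not particular to the members. The median share of neighbours from a cell's own class was 80% for Ptx3- capillary and 73.3% for Ptx3+ capillary cells. It was 40% for upstream valve, 33.3% for Ptn and 13.3% for downstream valve cells. Of the other classes, downstream valve cells had most members around them: on average 34.8% of their neighbours were Foxp2-Apoe-Bmp4 cells and 17.2% were downstream valve cells. For Ptn cells the mean was 20.4%, for upstream valve cells 15.4%, for Ptx3- capillary cells 9.23% and for Ptx3+ capillary cells 8.87%. Read from the members' side the order differed: their neighbours held on average 11.1% Ptn, 9.69% downstream valve, 7.78% Ptx3- capillary, 7.02% Ptx3+ capillary and 6.36% upstream valve cells. These classes are of unequal size, in the same order 17.4%, 9.60%, 17.8%, 21.2% and 11.1% of all cells. Downstream valve cells were thus near their share of all cells, and the other classes were below theirs.

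Bgn, Comp and Apoe are also made by cells of connective tissue and by macrophages, so markers of other cells were read in the same members, here at full depth. Fibroblast markers (10 genes) were detected in a median of 2% of members and 2.27% of other cells. Their summed level ran from 0 to 0.221% of a cell's reads in members and from 0 to 2.22% in other cells, and 22.7% and 27.3% of cells had at least 2 of them. At 20000 reads the medians were 0.746% and 1.27%, and 6.72% and 14.3% of cells had at least 2. Of 6 cartilage and tendon genes, 5 were at 0 in the 150 members, which allows a share of up to 2%, and the sum ran to 0.0154% of reads. Mural markers (10 genes, 3 at 0 in members) had a median of 0.667% against 0.889%, with sums up to 0.321% and 1.34% of reads, and haematopoietic markers (11 genes, 3 at 0) 0.667% against 0.988%, with sums up to 0.0636% and 0.0998%. The 4 glial genes had medians of 2.33% and 1.98% with sums up to 0.0296% and 1.78%, and the 3 epithelial genes were at 0 in all members.

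Of 6 tested genes shared with blood endothelium 1 was higher and 2, Aqp1 and Selp, were lower. Emcn, the endothelial sialomucin, had natural log medians of 2.17 in members and 1.64 in other cells, a log2 fold of 0.64 and detection at 20000 reads of 97% and 85.7%, and was higher in 12 of 12 blocks. Vwf, the von Willebrand factor, was at 0.53 with detection of 9.70% and 4.38%, and at -0.06 among cells below the median immediate-early score. The summed level of the 10 listed genes ran to 1.52% of reads in members (median 0.162%) and to 2.57% in other cells (median 0.291%). When cells with 2 or more fibroblast markers were left out, the class held 23.6% of cells and Lyve1 differed by -1.05.

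The sequence around annotated starts of each gene was searched for TGTTTAC, a forkhead-type motif, or its reverse GTAAACA, since Foxp2 encodes a forkhead factor. Windows of 300 bases, from 250 before to 50 after a start, came from RefSeq (GRCm38.p6), where 16 of the 20 scoring and leading genes had 19 windows. The motif was in 2 of these 19 windows and in 1199 of 32851 (3.65%) windows of all genes. Both are shown because they hold the motif, with the match in capitals, 5′ to 3′ on the minus strand of the genome. The Apoe window (chr7:19698349-19698648) is 1 of 3 for that gene and the Fmo2 window (chr1:162898444-162898743) 1 of 2. Both belong to alternative starts that lie inside the gene. The window at the outermost start held 0 matches in Apoe and 0 in Fmo2. A match is a run of letters and not a binding site.
Apoe: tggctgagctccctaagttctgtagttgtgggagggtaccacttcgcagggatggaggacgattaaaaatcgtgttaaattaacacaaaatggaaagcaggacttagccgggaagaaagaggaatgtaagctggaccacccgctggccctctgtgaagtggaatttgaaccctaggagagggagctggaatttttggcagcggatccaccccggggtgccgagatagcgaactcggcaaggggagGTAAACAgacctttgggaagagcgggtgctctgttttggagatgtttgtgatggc
Fmo2: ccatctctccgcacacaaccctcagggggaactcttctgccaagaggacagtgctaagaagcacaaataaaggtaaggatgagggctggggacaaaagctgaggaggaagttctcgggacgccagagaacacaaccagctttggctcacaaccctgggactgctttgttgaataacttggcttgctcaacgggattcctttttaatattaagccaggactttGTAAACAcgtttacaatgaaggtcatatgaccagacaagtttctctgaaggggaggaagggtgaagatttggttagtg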

How the data were processed

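Nasopharyngeal LECs of aged mice were sorted as CD31+ PDPN+ cells and sequenced by Smart-seq3. Per the labels and methods, the authors used STAR for alignment to mm10, featureCounts of Subread for gene counts and Seurat 4.1.0 for normalization. The authors deposited a table of 23168 genes and 656 of 1152 labelled cells, which held 150 members (134 of them with at least 20000 reads) and 506 other cells (434 of them). The methods describe log2, but the deposited values were read as the natural log of 1 plus reads per 10000, since on that scale each cell sums to 10000. Taking the smallest value above 0 as 1 read gave whole reads for 100% of values (tolerance 0.01), and hence each depth. Cells of at least 20000 reads were thinned to that number, which left out 88.

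The members and all gene lists were chosen with earlier results of these data known. Cells are not replicates, so no test was run. Fold changes are ratios of mean reads per 10000 with 0.1 added, for 10062 genes detected in at least 10% of members or other cells, scoring genes left out. Named genes were the scoring genes, Lyve1, the 3 highest and 2 lowest of each list, the 15 highest and 10 lowest outside the lists (detected in at least 20% of the higher side, and differing by at least 10 percentage points at 20000 reads), and the 5 highest against downstream valve, upstream valve and Ptn cells. Others are named as seen. Intervals are exact (Clopper-Pearson, 95%, scipy 1.17.1), and neighbours were found with scikit-learn 1.9.0. Positions are from GENCODE M21. Read recovery, thinning and scoring were checked on simulated data. Doublets were not called because wells received single sorted cells. How reads that fit several genes were counted is not given in the sources used here. A few genes that the naming rule selects are not reported here.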

Additional observations from a re-analysis of the deposited data

How the results depend on the processing

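The difference in Lyve1 stayed below 0 under all 13 alternatives, from -1.21 to -0.85, the latter with Apoe not scored. The class held 15.4% of cells when a lead of 0.25 was required and 17.1% among cells below the median immediate-early score, an alternative chosen after seeing the data, and 20.6% to 24% under the others. The median log2 fold of matrix genes ran from -0.45 to -0.26 and that of BMP receptors, effectors and targets from -0.19 to 0.06. The valve and collecting vessel median was -0.26 with a lead of 0.25. The lipid handling median, near 0, was 0.0067 after thinning, 0.079 with a lead of 0.25, 0.0046 with Foxp2 not scored, 0.0056 among cells below the median immediate-early score and -0.36 on summed reads. The median of the ageing genes was 0.15 with ranks in place of z scores, -0.37 on summed reads and -0.37 among cells below the median immediate-early score. Members among nearest neighbours were 53.3% with ranks, with Comp not scored and in blocks 7 to 12 of the cell numbers, and 46.7% with a lead of 0.25, with Apoe not scored and among cells below the median immediate-early score. The causes were not tested. No paired analysis was possible because all cells belong to 1 pooled group. Depth limits detection: at 20000 reads per cell a gene at 1 read per 10000 gives few reads, and PCR copies were not collapsed, so intervals cover counting error only.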
